A study of Mus musculus with 8 samples.

Results

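The miR-17-92 and miR-106b-25 clusters are groups of microRNA hairpins that are each cut from 1 transcript. The 9 precursors described here were chosen by name, 6 from the miR-17-92 cluster (mmu-mir-17, mmu-mir-18a, mmu-mir-19a, mmu-mir-20a, mmu-mir-19b-1 and mmu-mir-92a-1) and 3 from the miR-106b-25 cluster (mmu-mir-106b, mmu-mir-93 and mmu-mir-25), out of 1181 precursors in the deposited table. The species prefix mmu is left out from here on. All 9 were found there, and 8 of them, all but mir-19a, were among the 359 that reached a linear value of 10 in 4 or more of the 8 libraries and were compared between groups. Small RNA was sequenced from myoblasts, the proliferating precursors of muscle fibres, of 4 old and 4 young mice of the strain C57BL/6J, with no allele or treatment named for either group. The labels give 1 library per numbered mouse, called old 1 to old 4 and young 1 to young 4 here, and they give age as old or young, without months. The sources used here do not state the sex of the mice, the muscle of origin or the number of passages. Whether old and young myoblasts differ in these miRNAs, which are linked to cell division, is the question taken up here, and no direct measure of division was analysed beside them.

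MicroRNAs are short RNAs that pair with messenger RNAs through their seed, bases 2 to 8, and lower the output of those messages. The miR-17-92 cluster is a direct target of the transcription factors MYC and E2F, which drive the cell cycle, and its products target cell-cycle inhibitors such as p21 and the death factor Bim. The miR-106b-25 cluster lies in Mcm7, a subunit of the helicase that opens DNA for replication, and is therefore transcribed with a gene of dividing cells. In myoblasts the miR-17-92 cluster is known to promote division and to delay differentiation.

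The members carry 4 seeds, and their main mature sequences are shown because the groups by seed cut across the clusters. In the sequences, from RefSeq on GRCm38.p6, capitals mark the seed.
miR-17-5p: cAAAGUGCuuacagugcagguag
miR-20a-5p: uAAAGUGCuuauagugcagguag
miR-106b-5p: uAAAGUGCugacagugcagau
miR-93-5p: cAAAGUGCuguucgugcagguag
miR-18a-5p: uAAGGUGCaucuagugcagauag
miR-19a-3p: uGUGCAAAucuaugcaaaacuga
miR-19b-3p: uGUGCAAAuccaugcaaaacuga
miR-92a-3p: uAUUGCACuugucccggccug
miR-25-3p: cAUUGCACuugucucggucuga
With positions counted from 1 at the 5′ end, miR-20a-5p differs from miR-17-5p by C1U and C12U and is identical to it at 21 of 23 bases. miR-93-5p differs from miR-17-5p by U10G, A11U, C12U and A13C. miR-19b-3p differs from miR-19a-3p only by U11C. Over the 21 bases of miR-92a-3p, miR-25-3p differs from it by U1C, C14U and C18U.

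The 6 hairpins of the miR-17-92 cluster lie within 836 bases of chromosome 14 (115043671 to 115044506, plus strand, mm10) in the order mir-17, mir-18a, mir-19a, mir-20a, mir-19b-1 and mir-92a-1, all inside an exon of the non-coding transcript Mir17hg. The 3 hairpins of the miR-106b-25 cluster lie within 498 bases of chromosome 5 (138165321 to 138165818, minus strand) in the order mir-106b, mir-93 and mir-25, all in intron 13 of 1 annotated Mcm7 transcript. The promoter of Mcm7 is shown because the 3 miR-106b-25 members lie in this gene. The deposited values of these members kept 1 order in all 8 libraries and were all highest in old 4 and young 4, as given further on. Those 2 libraries were also the highest for 33.4% of all 359 compared precursors. A link between the promoter and these levels was not tested. The printed window runs from 250 bases before to 50 bases after a RefSeq start of the gene (GRCm38.p6, chr5:138171834-138172133, minus strand). The annotated transcript with intron 13 starts further upstream, at base 138172422. The window therefore lies inside that transcript and not before its start.
Mcm7 promoter: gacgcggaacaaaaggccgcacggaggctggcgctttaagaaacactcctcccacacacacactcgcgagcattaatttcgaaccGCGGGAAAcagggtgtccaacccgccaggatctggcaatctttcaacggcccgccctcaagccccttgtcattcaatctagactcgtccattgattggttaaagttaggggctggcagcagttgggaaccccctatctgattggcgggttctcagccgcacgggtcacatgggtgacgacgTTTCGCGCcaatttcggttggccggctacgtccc
Capitals mark 2 matches to TTTNNCGC, a form of the E2F motif searched on both strands, at bases 86 to 93 (minus strand) and 267 to 274 (plus strand). This motif was found in 5.16% of 32817 promoter windows of the same length, and CACGTG, the E-box bound by MYC, in 7.15% of them and not in this window. The matches are letters in a sequence, and binding was not measured.

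The deposited log2 values behaved as RPKM (reads scaled to precursor length and library size), and on that reading old libraries held 26.3 ± 1.20 M reads and young libraries 33.6 ± 4.06 M (SD, n = 4 per group), from 25.1 M in old 4 to 39.4 M in young 4. Old 4 and young 4 stood apart from the rest. Old 4 was the highest old library for 50.4% of the 359 compared precursors, young 4 the highest young library for 57.9%, and these libraries were the 2 highest of all 8 for 33.4%. Some skeletal muscle miRNAs were abundant, with mir-206 at 14.78 to 16.52 and mir-133a-1 at 11.91 to 14.92. Others of the same list, mir-1a-1 and mir-1a-2, were at 0 to 3.22. The state of differentiation of the cells was not tested. Of the blood markers, mir-144, mir-142 and mir-223 were at 0 in all libraries and mir-451a was above 0 only in young 1, at 0.89. The 6 fibroblast and smooth muscle markers were all compared, and their summed level on the log2 scale ran from 15.4 to 15.9 over the old mice and from 14.6 to 15.7 over the young mice. The summed levels of the 7 epithelial and the 6 neural markers ran from 5.30 to 8.12 and from 2.20 to 4.49 over the old mice, and from 6.10 to 7.65 and from 2.83 to 4.12 over the young mice. In such bulk libraries, fewer cells of a type and less RNA per cell cannot be told apart.

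The 6 members of the miR-17-92 cluster, cut from 1 transcript, had mean levels up to 17.5 apart on the log2 scale between the highest and the lowest. mir-92a-1, the 3′ hairpin of the cluster and the source of miR-92a-3p, held nearly all of the cluster's signal, from 99.7% to 99.8% of its summed linear value in each library. Old 1 to old 4 gave log2 levels of 18.14, 18.71, 18.78 and 19.02, and young 1 to young 4 gave 18.69, 18.63, 18.61 and 19.75. Its mean was the 5th highest of the table. Young 4 was thus the highest library and old 1 the lowest, and the other 6 lay from 18.61 to 19.02. In read terms, 646348 to 2778904 reads per library were listed under this hairpin.

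mir-17, the first hairpin of the transcript and the source of a broadly acting repressor of cell-cycle inhibitors, was far lower. Its log2 levels were 8.52, 9.53, 9.40 and 9.68 for old 1 to old 4, whereas young 1 to young 4 had 8.24, 8.87, 8.89 and 10.47. Young 4 was again the highest library, and the old and young values overlapped. Within a library mir-92a-1 exceeded mir-17 by 9.18 to 10.45 on the log2 scale, a mean of 9.59 ± 0.41 (SD, n = 8) that corresponds to 771-fold.

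mir-18a and mir-20a, which lie on either side of mir-19a, followed mir-17. The log2 levels of mir-18a were 7.78, 8.96, 8.75 and 9.09 for the old mice and 8.53, 8.28, 8.38 and 9.73 for the young mice. mir-20a, which shares the seed of mir-17, had 6.01, 7.07, 6.91 and 7.55 for the old mice and 6.31, 5.88, 6.17 and 7.95 for the young mice. Both were highest in young 4, and within the old group both were lowest in old 1 and highest in old 4. mir-17 exceeded mir-20a by 1.93 to 2.99 in every library (mean log2 difference 2.47 ± 0.33, SD, n = 8), although their mature sequences differ at only 2 bases. mir-17 exceeded mir-18a in 7 of 8 libraries by 0.51 to 0.74, and in young 1 it lay below it, at -0.29.

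The miR-19 hairpins, whose products are known as the oncogenic part of the cluster in lymphoma, were close to the floor of the table. mir-19a had 0.39, 0.91, 2.22 and 2.96 for old 1 to old 4, and 2.02, 0.19, 1.57 and 0.31 for young 1 to young 4, which corresponds to 3 to 16 reads per library. No library reached the linear value of 10, so mir-19a was not compared between the groups. mir-19b-1 had 2.42, 3.77, 3.90 and 3.82 for the old mice and 2.61, 0.51, 2.58 and 5.35 for the young mice, which corresponds to 4 to 140 reads. It was compared because 3 old libraries and young 4 reached the minimum. The old values of mir-19b-1 lay within the range of the young ones, from young 2 at the bottom to young 4 at the top. At such depth counting error alone is wide, with 95% exact Poisson intervals of 0.62 to 8.77 around 3 reads and 9.15 to 26.0 around 16 reads, and these cover counting error only, since reads without molecular identifiers are not independent molecules.

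The gap between mir-92a-1 and the miR-19 hairpins was the widest of the cluster. mir-92a-1 exceeded mir-19b-1, its direct neighbour on the transcript, by 14.40 to 18.12 on the log2 scale, and mir-19a by 16.06 to 19.44. The order of the levels did not follow the order on the transcript, since the first and the last hairpins were the most abundant and the third and the fifth the least. The share of G and C in the mature sequence was 57.1% for miR-92a-3p, 47.8% for miR-17-5p, 43.5% for miR-18a-5p, 39.1% for miR-20a-5p and miR-19b-3p and 34.8% for miR-19a-3p. Among the 6 members, level and G and C share thus fell in nearly the same order, and the part of base composition in the levels was not tested. Over the 327 compared precursors with a mature sequence, the Spearman correlation between the mean G and C share of the arms and the mean level was -0.15, and over all 1008 with a mature sequence it was 0.12. These points share libraries, and compared precursors share a minimum level.

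**Figure D1:**
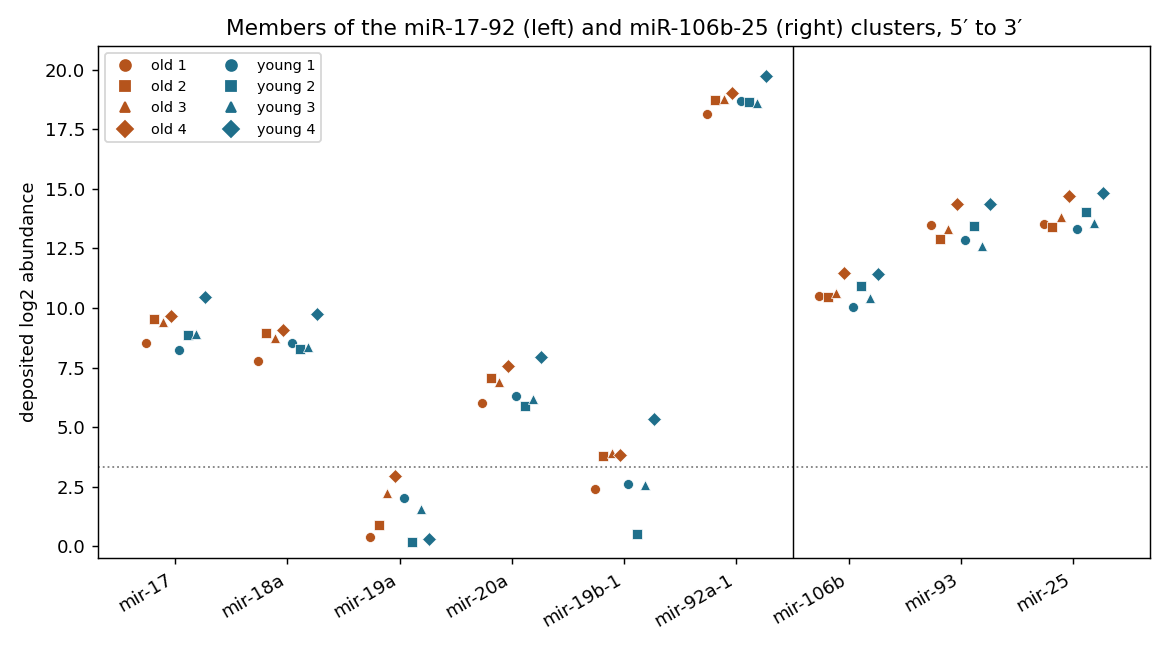
Deposited log2 abundance (vertical axis) of the 9 members in each of the 8 libraries, in 5′ to 3′ order on their transcripts; each point is 1 library, colour gives the group, shape the mouse number, and the dotted line the linear value of 10. mir-92a-1 sits at 18.14 to 19.75, mir-19a at 0.19 to 2.96, and old and young points overlap for every member.

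The 3 members of the miR-106b-25 cluster had mean levels within 3.16 of each other on the log2 scale, a far narrower range than that of the miR-17-92 cluster. mir-25, which shares its seed with mir-92a-1, had log2 levels of 13.51, 13.39, 13.84 and 14.71 for old 1 to old 4, and of 13.30, 14.05, 13.58 and 14.83 for young 1 to young 4. mir-93, which shares its seed with mir-17, had 13.48, 12.91, 13.31 and 14.38 for the old mice and 12.84, 13.43, 12.59 and 14.38 for the young mice. mir-106b, the third carrier of the seed in common with mir-17 and mir-20a, had 10.52, 10.46, 10.64 and 11.47 for the old mice and 10.03, 10.94, 10.42 and 11.44 for the young mice. Old 4 and young 4 were the highest libraries for each of the 3, and the remaining old and young libraries overlapped.

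Within a library the miR-106b-25 members kept their order in the deposited values, while of their distances that between mir-25 and mir-106b varied least. mir-25 exceeded mir-106b by 2.93 to 3.39 (mean log2 difference 3.16 ± 0.15, SD, n = 8), mir-93 exceeded mir-106b by 2.17 to 2.96, and mir-25 exceeded mir-93 by 0.03 to 0.99. The gap of 0.03 between mir-25 and mir-93, in old 1, is smaller than the 0.07 that scaling to precursor length gives. In reads, mir-93 lay above mir-25 in old 1, at 28123 against 27409. mir-25 made up 47.5% to 61.9% of the cluster's summed linear value, mir-93 31.2% to 46.5% and mir-106b 5.22% to 7.10%. In decreasing order of the mean the 9 members were mir-92a-1, mir-25, mir-93, mir-106b, mir-17, mir-18a, mir-20a, mir-19b-1 and mir-19a. In the deposited values each exceeded the next in all 8 libraries, except mir-17 over mir-18a, for which it was 7 of 8. The ranges over the libraries overlapped between mir-25 and mir-93, mir-106b and mir-17, mir-17 and mir-18a, mir-18a and mir-20a, and mir-19b-1 and mir-19a, and were separate between the other 3 neighbouring pairs.

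Summed by seed, the families of mir-17 and of mir-92a-1 were each dominated by 1 member in the table as listed. Of the 7 precursors with the seed of mir-17, mir-93 held 76.3% to 85.7% of the summed linear value per library, mir-106b 10.8% to 16.9%, mir-17 2.75% to 7.41% and mir-20a 0.44% to 1.35%. The miR-106b-25 cluster therefore supplied most of the signal of the hairpins with this seed in all 8 libraries. Each value joins the 2 arms of a hairpin, and the seed lies on the arm shown, so these are shares of hairpins. Of the 7 precursors with the seed of mir-92a-1, that hairpin held 90.1% to 95.3% and mir-25 2.27% to 4.54%. This share is as listed in the table, since mir-92a-1 shares its mature sequence with a hairpin outside the cluster (mir-92a-2) and reads may have been listed under either. mir-18a was the only precursor above 0 of the 2 with its seed. Among the 3 with the miR-19 seed, mir-19b-1 held 32.2% to 60.9% and mir-19a 1.72% to 26.5%, and mir-19b-2 exceeded mir-19b-1 in old 3 and young 2.

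**Figure D2:**
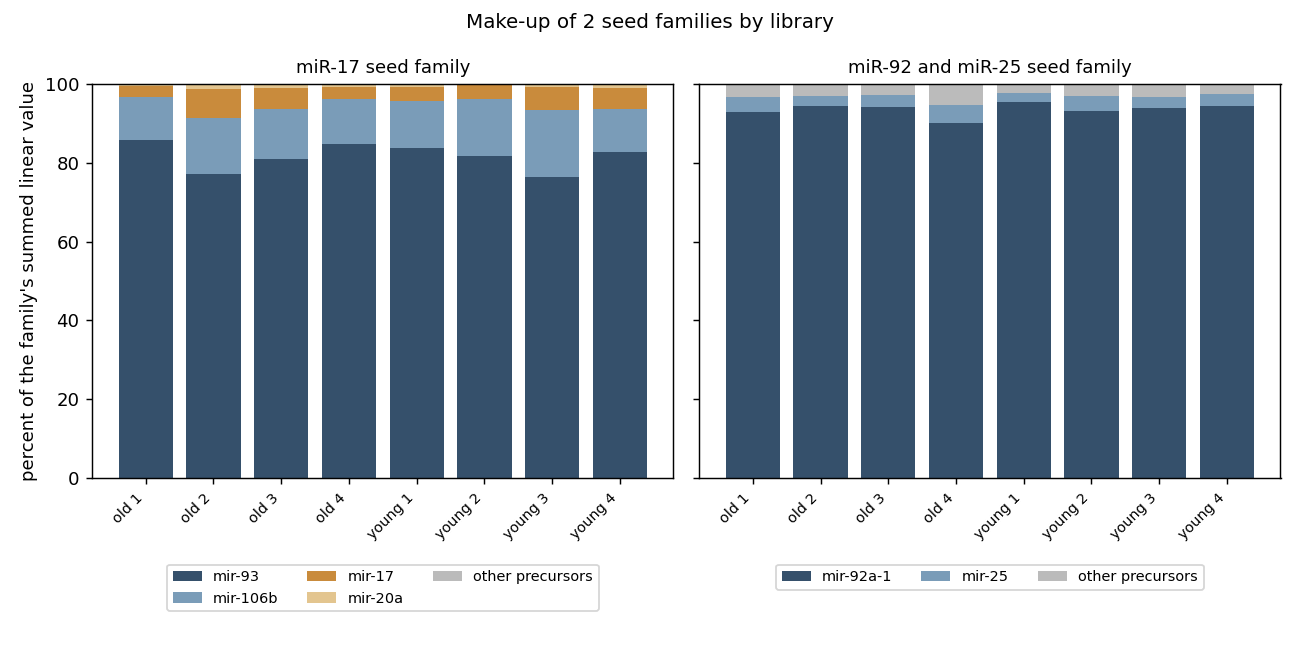
Percent of the summed linear value (vertical axis) of the precursors that share a seed, in each of the 8 libraries. Shown are mir-93, mir-106b, mir-17 and mir-20a (left) and mir-92a-1 and mir-25 (right), with the other precursors of each seed joined. mir-93 held 76.3% to 85.7% of its family and mir-92a-1 90.1% to 95.3% of its family, in old and young libraries alike.

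Other precursors that share a seed with the members were mostly at or near 0. The X-linked paralog cluster, from mir-106a to mir-363, has 6 precursors in the table. mir-18b, mir-20b and mir-363 were at 0 in all libraries, mir-106a was at 0.25 to 2.55 and mir-19b-2 at 0.89 to 4.90. Only mir-92a-2 was abundant, at 12.63 to 13.95. Its hairpin is shown with that of mir-92a-1 because both contain the same mature sequence (capitals) and differ around it.
mir-92a-1 (chr14:115044427-115044506, plus strand): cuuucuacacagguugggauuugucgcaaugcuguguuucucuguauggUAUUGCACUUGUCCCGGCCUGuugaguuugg
mir-92a-2 (chrX:52741838-52741928, minus strand): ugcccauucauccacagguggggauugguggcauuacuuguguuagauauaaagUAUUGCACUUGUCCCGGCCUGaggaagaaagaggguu
mir-92a-1 exceeded mir-92a-2 by 5.44 to 6.01 on the log2 scale in each library (mean 5.62 ± 0.19, SD, n = 8), against 0.19 that their lengths would give if the same reads were listed under both. mir-19b-1 and mir-19b-2, which also share their mature sequence, differed by -0.38 to 1.23. A read of the mature sequence alone fits both copies, and how such reads were assigned is not given in the sources used here, so the level of each copy is uncertain. mir-92b, another carrier of the seed of mir-92a-1, was at 11.97 to 14.37, mir-32 at 0 to 3.49, and mir-367 at 0 in all libraries.

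Old and young libraries did not differ in any of the 8 compared members by more than the spread between libraries. In limma, fitted over all 359 precursors, 0 of 8 passed an adjusted p of 0.05, against a background of 0.0% (0 of 359), and 0 of 8 had an unadjusted p under 0.05, against 1.11%. The groups were separate for 0 of 8 members, against 0.836% of all compared precursors. The mean was higher in old libraries for 5 of 8 members, against 46.0% of all compared precursors. The median difference, old minus young, was 0.16 on the log2 scale for the 5 compared miR-17-92 members. It was 0.07 for the 3 miR-106b-25 members and -0.05 over all 359. One of the members higher in old, mir-19b-1, passed the filter mostly through old libraries. Among precursors with a mean linear value of at least 100, which leaves out mir-19b-1, the count was 4 of 7 members, against 47.2%. The miR-17-92 median was then 0.04 and the miR-106b-25 median 0.07. Neither sign was stable. With all 5 members compared, the miR-17-92 median was -0.13 without young 1 and -0.04 without young 2. It was -0.05 without old 2 and -0.10 without old 4, but there mir-19b-1 fell below the filter and only 4 members entered. The miR-106b-25 median was -0.17, -0.16 and -0.03 without old 4, young 1 and young 3.

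The intervals show what size of change these libraries leave possible. The mean of mir-92a-1 was 18.66 ± 0.37 for old mice and 18.92 ± 0.55 for young mice (SD, n = 4 per group), a log2 difference of -0.26 with an SE of 0.34 (limma, adjusted p = 0.995). On the linear scale this is 0.84-fold, with a 95% interval from 0.49 to 1.43. For mir-17 the means were 9.28 ± 0.52 (old) and 9.12 ± 0.95 (young), or 1.12-fold with an interval from 0.50 to 2.49. mir-20a had means of 6.88 ± 0.64 and 6.58 ± 0.93, or 1.24-fold with an interval from 0.52 to 2.94, and mir-18a 8.65 ± 0.59 and 8.73 ± 0.67, or 0.94-fold with an interval from 0.46 to 1.92. These intervals extend past a change of 2-fold in at least 1 direction for each of the 4 members. mir-19b-1 had 3.48 ± 0.71 and 2.76 ± 1.99, with the widest interval of all, from 0.39-fold to 6.91-fold.

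The miR-106b-25 members were about as uncertain. mir-25 had a ratio of 0.95 with an interval from 0.49 to 1.83, mir-93 of 1.16 with an interval from 0.56 to 2.38, and mir-106b of 1.05 with an interval from 0.56 to 1.95 (limma, adjusted p = 0.995 for each). The SD within a group was 0.67 in the median over the 8 members, the same as over all 359 precursors. Without old 4 and young 4 the number past the threshold was again 0, of 7 members compared. The cluster medians were then 0.29 and 0.08, and the differences ran from -0.10 for mir-92a-1 to 0.54 for mir-20a. mir-17 was the member with the largest move among these 7, from 0.16 to 0.48.

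**Figure D3:**
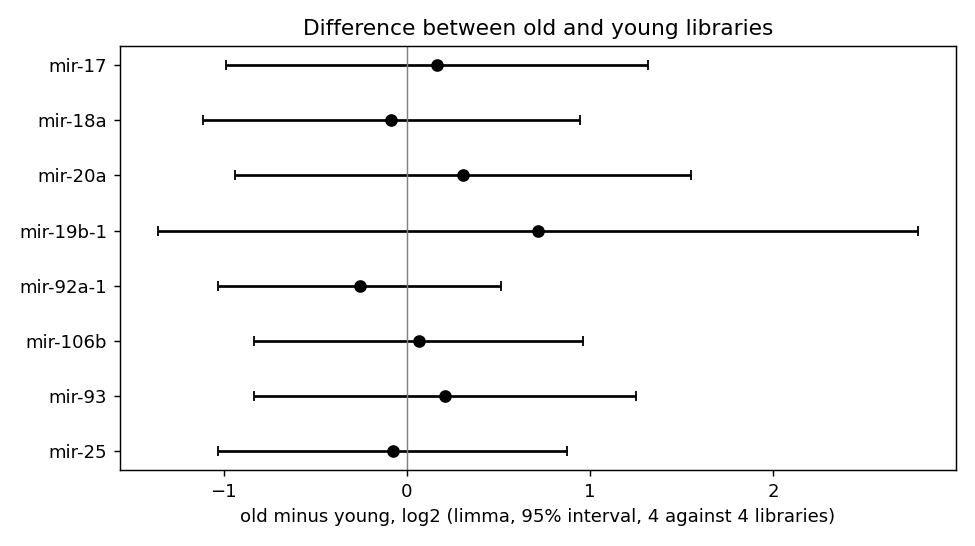
Old minus young difference on the log2 scale (horizontal axis) for the 8 compared members, with limma's 95% interval from 4 old and 4 young libraries. Every interval includes 0; the estimates run from -0.26 for mir-92a-1 to 0.71 for mir-19b-1, which has the widest interval.

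The members varied more from library to library within a group than between the groups. The mean over the 5 compared miR-17-92 members was 8.57, 9.61, 9.55 and 9.83 for old 1 to old 4, and 8.88, 8.43, 8.93 and 10.65 for young 1 to young 4. Young 4 was 1.90 above the mean of the other young libraries, and old 4 was 0.59 above that of the other old ones. The 1.90 rests in part on mir-19b-1, close to the floor, at 5.35 in young 4 and 0.51 to 2.61 in the other young libraries. The mean over the miR-106b-25 members was 12.50, 12.25, 12.60 and 13.52 for the old mice and 12.06, 12.81, 12.20 and 13.55 for the young mice, so that young 4 and old 4 were 1.20 and 1.07 above the rest of their groups. Young 4 was the highest of the 8 libraries for 6 of 8 members (39.8% of all compared precursors), and old 4 and young 4 were the 2 highest for 7 of 8 (33.4%).

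This height rested in part on the scale. mir-486 and mir-3107 hold the 2 highest means of the table, and they were lower in young 4 (log2 20.29 and 20.81) than in any other library (at least 20.99 and 21.50). Their values rose and fell together over the libraries, so they may not be separate measurements. Whether the same reads were listed under both was not tested. When each library was scaled to its sum without mir-486 or mir-3107, old 4 and young 4 were the 2 highest for 3 of 8 members (12.8% of all compared precursors). Young 4 then stood 1.38 above the other young libraries for miR-17-92 and 0.68 for miR-106b-25, and old 4 stood 0.10 and 0.58 above the other old ones. The miR-17-92 values again include mir-19b-1. For miR-17-92 young 4 was the highest library under each of the 3 rescalings tried (this sum, median ratio and quantile), and for miR-106b-25 it was old 4. mir-92a-1 took 9.15% of the summed linear value of all precursors in young 4, against 2.37% to 4.68% in the other 7 libraries. Young 4 was also the deepest library and old 4 the shallowest, and the part of depth in these values was not tested. Several markers of other cell types were also higher in these libraries than in the rest of their groups. mir-126a of endothelium was higher by 0.94 in old 4 and 1.87 in young 4, and mir-150, 1 of 5 blood markers, by 0.96 and 1.72. The mean of the 2 compared epithelial markers was higher by 1.78 and 1.37, and that of the 6 fibroblast and smooth muscle markers by 0.54 and 0.74. Others did not follow: the blood markers mir-451a, mir-144, mir-142 and mir-223 were at 0 in both libraries. mir-143, the most abundant fibroblast marker, was lowest of the old libraries in old 4, at 14.89 against 14.99 to 15.56. In young 4 it was at 14.81, against 14.06 to 15.35 in the other young ones. mir-126a stayed at 2.96 to 5.11 and mir-150 at 1.04 to 4.47 on the log2 scale, while the epithelial mir-205 reached 8.02 in old 4 and 7.35 in young 4. Their part in the levels of the clusters was not tested.

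Other miRNAs of proliferation and differentiation were set beside the clusters from lists chosen for their known roles. Of the miRNAs that restrain the cell cycle (the miR-15 and miR-16 family, the miR-34 family, mir-322 and mir-503), 9 of 10 in the table were compared and 0 passed the test, with a median log2 difference of 0.10 and 7 higher and 2 lower means in old libraries. That median was -0.23 without old 4, 0.34 without young 4 and -0.07 without both. mir-34c and mir-34a, which respond to p53, were its most abundant members, at 13.94 ± 0.67 and 11.80 ± 0.42 for old mice and 14.03 ± 0.68 and 11.70 ± 0.76 for young mice (SD, n = 4 per group). All 12 let-7 precursors, repressors of growth genes, were compared and 0 passed (median 0.10, 8 higher and 4 lower). Copies in both lists had nearly the same values, such as let-7c-1 and let-7c-2 (14.99 and 14.98 for old mice). The same held for mir-16-1 and mir-16-2 (9.40 and 9.34). Such copies may not be separate measurements, though the counts and medians include each. The let-7 median turned to -0.04 when old 4 was left out and to -0.06 for young 1, and reached 0.32 for young 4. let-7b, the most abundant, was at 15.59 ± 0.30 and 15.23 ± 0.55, and let-7c-1 at 14.99 ± 0.27 and 14.77 ± 0.46. Of 6 other proliferation-linked precursors, 4 were compared and 0 passed (median -0.05, or 0.03 after quantile normalization and 0.15 after the sum rescaling), and leaving out 1 library gave -0.28 (without old 4) to 0.35 (without young 4). mir-221 and mir-222, which repress the cell-cycle inhibitor p27, led it at 14.30 ± 0.66 and 14.00 ± 0.40 for old mice and 14.31 ± 0.81 and 14.09 ± 0.94 for young mice.

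The muscle miRNAs took another course over the libraries. Of 7 listed precursors 4 were compared, and 0 passed (median -0.14, or 0.06 after the sum rescaling). This median was -0.73 with array weights and -0.65 without old 4 and young 4, and leaving out 1 library gave -0.56 (without young 4) to 0.27 (without young 3). Their mean was lowest in young 4, at -1.72 relative to the other young libraries, while miR-17-92 was highest there at 1.90. The let-7 list was highest in young 4 as well (0.77 above the other young libraries), as were mir-221 and its companions (1.63 above). The restraining list was highest in old 4 (0.97 above the other old libraries) and stood 0.50 above the other young libraries in young 4. The mean of all compared precursors was itself 0.19 above the others in old 4 and 0.33 in young 4. Within the restraining list mir-322 and mir-503, cut from 1 transcript, went the other way: young 4 was their lowest library, at 7.89 and 6.95 against 8.92 to 10.03 and 8.74 to 9.68 elsewhere, and old 4 their lowest old one. Both were chosen for mention once their values were known. mir-206, the most abundant miRNA of the muscle list, was at 14.78 in young 4 and at 15.67 to 16.52 in the other 7 libraries.

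**Figure D4:**
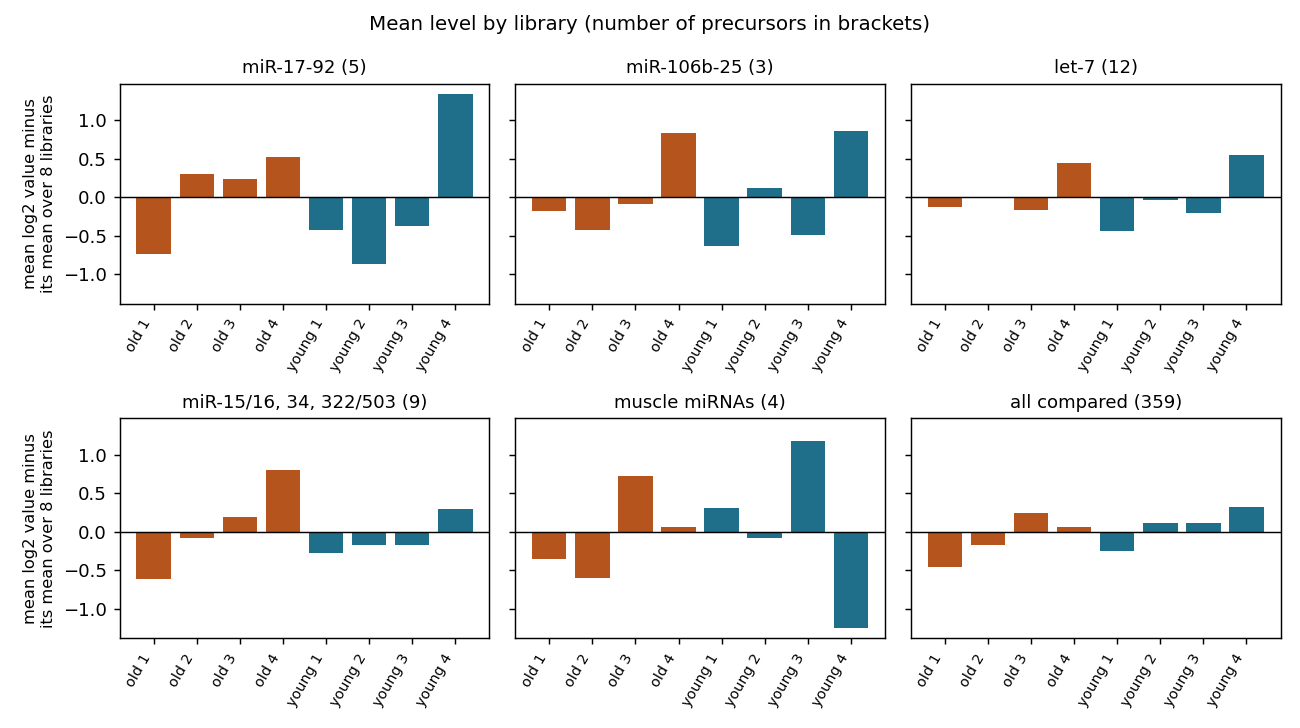
Mean log2 value of the compared precursors of each set minus the set's mean over the 8 libraries (vertical axis), by library, with old libraries in orange and young ones in blue and the number of precursors in brackets. miR-17-92 is highest in young 4 (10.65 against a mean of 9.31), miR-106b-25 in young 4 and old 4, and the muscle miRNAs are lowest in young 4. The miR-17-92 mean includes mir-19b-1, which is close to the floor.

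How closely the members followed each cluster differed from member to member. The SD over the 8 libraries of the log2 difference from the miR-106b-25 mean was 0.11 for mir-25, 0.12 for mir-106b and 0.18 for mir-93, against 0.41 for mir-92a-1 and 0.47 for mir-17. For the miR-17-92 mean it was 0.14 for mir-20a, 0.26 for mir-18a, 0.29 for mir-17, 0.40 for mir-92a-1 and 0.78 for mir-19b-1, against 0.56 to 0.63 for the 3 miR-106b-25 members. The members enter their own cluster's mean, so their SDs are small in part by construction. The miR-17-92 mean includes mir-19b-1, which is close to the floor. mir-92a-1 was about as close to the miR-106b-25 mean as to its own, and mir-19b-1 was farther from its own than the miR-106b-25 members were. By this measure the precursors most like the miR-17-92 mean, of 351 compared outside both clusters, were mir-193a (0.30), mir-155 (0.32) and mir-29b-1 (0.35), where the median was 0.75. mir-155, best known from activated immune cells, was at 12.04 in old 4 and 12.10 in young 4 and at 10.35 to 11.07 elsewhere. The precursors most like the miR-106b-25 mean were mir-29a (0.16), let-7g (0.17) and mir-425 (0.18), where the median was 0.62.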

How the data were processed

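The values are log2 abundances of 1181 precursors in 8 libraries, deposited with 2 decimals and a floor of 0, so a value of 0 means a linear value of at most 1. BWA and mm10 are named in the submitters' processing notes; the sources used here do not state counting, trimming or the treatment of reads that fit several precursors. The 2 arms of a hairpin share 1 value. Multiplied by precursor length, 99.1% to 100% of the low linear values (12 reads or fewer) came within 0.1 of a whole number of reads, and read numbers and library sizes rest on this.

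The log2 values as deposited entered limma 3.58.1 in R 4.3.3 (moderated by eBayes, trend included) for the 359 precursors that reached a linear value of 10 in 4 or more libraries, with Benjamini-Hochberg adjustment and a threshold of 0.05. The design was written for either scale, and no pseudocount was added. The fit was also run on simulated data in which all values were drawn independently. Shifts of a library shared by many precursors, as in old 4 and young 4, were absent there. That run therefore does not show how the fit performs on these libraries. The text names the 9 members, precursors that share a seed with them, the 3 precursors closest to each cluster's mean and up to 2 of the most abundant of each list. mir-486, mir-3107 and marker miRNAs were named beside results they bear on, mir-205, mir-143 and mir-133b after their values were seen. The copies let-7c-2, mir-16-1, mir-16-2 and mir-133a-2 were named for the likeness of their values. Alternatives covered the filter, a pseudocount, 3 rescalings, the variance model, the replicate number as a block and left-out libraries. The members and lists were chosen with earlier results of these data known. Names were matched to RefSeq for 1169 of 1181 precursors and all 9 members; the arm shown is the one usually called the main product. Host transcripts are from GENCODE M21. Other steps used Python 3.11.15 with matplotlib 3.10.9, scipy 1.17.1, pandas 2.3.3 and numpy 2.4.6.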

Additional observations from a re-analysis of the deposited data

Results flagged for a closer look

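In 92 groups of 4 libraries behind the values named above, 1 library lay far from the other 3 of its group in 9, where about 1 in 20 groups, or 4.6, would do so by chance. Among the members and their sums, mir-92a-1 was at 19.75 in young 4 against 18.61 to 18.69 in the other young libraries, and its share of the summed linear value was 9.15% there against 2.81% to 3.89%; the share of the whole miR-17-92 cluster was 9.17% against 2.81% to 3.90%. mir-19b-1 was at 2.42 in old 1 against 3.77 to 3.90 in the other old libraries. The difference between mir-17 and mir-20a was 2.13 in old 4 against 2.46 to 2.51. The share of the miR-106b-25 cluster was 0.42% in old 4 against 0.20% to 0.23%.

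Among precursors outside the clusters, mir-92b was at 14.37 in old 4 against 11.97 to 12.33, mir-29a at 13.26 in old 4 against 12.39 to 12.47, and mir-133a-1 at 14.30 in old 3 against 12.94 to 13.11. Of these 9 values, 4 came from old 4 and 3 from young 4, and shares of the same libraries are not separate measurements.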

How the results depend on the processing

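Under the 19 alternatives, 1 of which (leaving out old 4 and young 4 together) was chosen after seeing the data, 0 precursors and 0 members passed the threshold in limma; the smallest adjusted p over the precursors was 0.11 and over the members 0.577. The sign of the small differences was not stable. For mir-18a (-0.09) it turned to 0.14 after quantile normalization, 0.11 after scaling to the sum without mir-486 or mir-3107, 0.0124 with array weights and 0.10 without old 4 and young 4. mir-92a-1 turned to 0.06 (0.055) after quantile normalization and mir-25 to 0.12 after the rescaling to the sum. Leaving out 1 library gave -0.13 to 0.62 for mir-17, -0.24 (-0.235) to 0.25 for mir-18a, -0.36 to 0.22 for mir-25, -0.38 to 0.0192 for mir-92a-1, -0.17 to 0.31 for mir-106b, -0.0767 to 0.57 for mir-93 and -0.0358 to 1.07 for mir-19b-1, which fell below the filter in 4 of these 8 fits. mir-20a stayed positive, from 0.08 (0.075) to 0.76 (0.765). The medians ranged from -0.13 to 0.43 for miR-17-92 and from -0.17 to 0.31 for miR-106b-25 when 1 library was left out. The 0.43, without young 4, is over 4 members, since mir-19b-1 fell below the filter there. Quantile normalization and the rescaling to the sum moved the median of all compared precursors by 0.14 and 0.20 and raised the share with a higher mean in old libraries from 46.0% to 59.6% and 64.9%, and the members' medians were then 0.48 and 0.36 for miR-17-92 and 0.14 and 0.26 for miR-106b-25.

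The labels give no pairing by number. The deviations of same-numbered libraries from their group means correlated at -0.06, 0.43, 0.66 and 0.58 for numbers 1 to 4, so not every pair did, and each young library from 2 to 4 correlated best with the old library of its number, while young 1 did so with old 3. With the replicate number as a block, 0 precursors and 0 members passed, and 39 rather than 4 precursors had an unadjusted p under 0.05.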
